A study of Drosophila melanogaster with 15 samples.

Results

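The proteasome subunit genes of Drosophila melanogaster were followed here in nuclei of the mushroom body (MB), a brain structure that flies need for learning. They were taken as every gene whose current symbol begins with Prosalpha, Prosbeta, Rpn and a digit, or Rpt and a digit, matched to the files by FlyBase gene ID. By this rule 48 genes were found among 17559 listed genes. They comprise 7 genes of the 20S alpha ring, 7 of the 20S beta ring, 9 of the 19S base, 9 of the 19S lid with Rpn10, and 16 further copies whose symbols end in R or T, with or without a digit.

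Nuclear RNA was sequenced from 15 libraries made from frozen fly heads, after nuclei that carried a green fluorescent tag on the nuclear envelope had been pulled down with antibody-coated beads. The controls carried UAS-unc84::GFP, the tag, and UAS-Dicer2 over R14H06-Gal4 in a w* background, with 4 libraries from trained and 4 from naïve flies. The knockdown flies (trx-KD) carried, in addition, P{GD4502}v37715, an RNAi insertion against trithorax (trx), opposite the tag, with 4 libraries from trained and 3 from naïve flies. Every library came from pooled flies, and all 4 groups carried the nuclear tag, the extra Dicer2 and the R14H06-Gal4 driver, so trx was targeted only where this driver, which labels Kenyon cells of the MB, is active. The control genotype lists no RNAi insertion, so loss of trx and the presence of an RNAi construct cannot be told apart. Sex, age, the training protocol and the time between training and collection were not given in the sources used here, nor whether replicates came from separate cultures of flies, so p-values measure the spread between these libraries. In such bulk samples, fewer nuclei of a type and less RNA per nucleus cannot be told apart.

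The proteasome is the barrel-shaped protease that degrades proteins tagged with ubiquitin. Its 20S core is built from outer rings of alpha subunits, which form the gate, and inner rings of beta subunits, of which beta1, beta2 and beta5 carry the proteolytic sites. The 19S cap consists of a base, with the ATPase ring of Rpt subunits and the scaffolds Rpn1 and Rpn2, and a lid around the deubiquitinase Rpn11, while Rpn10 and Rpn13 bind ubiquitin chains. In neurons, proteasomes turn over synaptic proteins and are needed for some forms of memory. The copies with R and T in their names are paralogs, of which several are known from the fly testis.

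Between 14154045 and 45976562 counts fell on genes in each library (median 24250938). Levels are given as CPM, the counts of a gene relative to the library total after TMM scaling. The level of trx lay between 561 and 609 CPM in the 8 control libraries and between 499 and 550 CPM in the 7 trx-KD libraries, which did not overlap. The log2 fold change of trx was -0.11 ± 0.06 (SE) in naïve flies (adjusted p = 0.304, edgeR) and -0.15 ± 0.05 in trained flies (adjusted p = 0.0744). The 12 Kenyon cell markers, such as ey, dac and Fas2, were all counted and summed to between 12172 and 17113 CPM. RNA of other cell types was present as well, since 6 photoreceptor markers summed to 7153 to 14761 CPM, with Arr2 at 0, and 6 fat body markers to 2698 to 6408 CPM. Transcripts of the mitochondrial genome made up 0.241% to 1.02% of counts, and ribosomal protein genes 0.865% to 1.098%. Naïve control replicate 4 stood apart from its group. Its counts differed from those of the other 3 naïve controls by a chi-square per degree of freedom of 49.4 to 55.5, against 7.89 to 12.9 among those 3, and its mitochondrial share was 0.368% against 0.749% to 0.946%. Trained trx-KD replicate 3 differed from replicates 1 and 2 by 57.7 and 51.6, but from replicate 4 by 16.2.

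Counts were recorded for 42 of the 48 genes, and 33 passed the filter on low counts and were tested. These were 30 of the 32 subunit genes without R or T and 3 of the 16 copies. The ATPase gene Rpt1 and the alpha ring gene Prosalpha1 were listed at 0 in every library, as were the copies Prosalpha1R, Prosalpha4T1, Rpn12R and Rpn13R. The place of a gene in the genome bears on these zeros. Of the protein-coding genes that lie wholly within an intron of a gene on the same strand, 349 of 349 had no count in any library, and of those within an intron of a gene on the other strand, 820 of 823. Among protein-coding genes whose span is shared with no other gene, 214 of 7395 (2.89%) had no count. Reads were thus recorded over whole gene spans without regard to strand, and bases shared by 2 genes gave next to none.

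Rpt1 (FBgn0028687), on chromosome arm 2R from 7652440 to 7653954 (dm6 coordinates), lay wholly inside the span of CG17985. Likewise, Rpn12R lay inside Sytbeta, Prosalpha4T1 inside CG42322, and Rpn13R inside the joint spans of CG15465 and rg. Their zeros therefore say nothing of their expression. Prosalpha1 and Prosalpha1R are neighbouring copies on arm 2R whose spans were shared with other genes over little of their length, with 98.8% and 98.7% of bases unshared, and the reason for their zeros was not tested. The remaining 9 untested copies reached at most 16 counts in a library, or 0.613 CPM.

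The subunit genes were compact. The median span of the 32 genes was 1390 bases, against 2145 for the 13685 protein-coding genes listed, and spans ran from 914 bases for Prosbeta3 to 4500 for Rpn8. The median number of separate exon blocks was 3 in both sets. The 32 genes were spread over the genome, with 10 on arm 2R, 9 on 3R, 5 on 3L, 4 on 2L and 4 on the X. A neighbour shared part of the span of 16 of them, but it took more than 10% of the span in only 5, namely Rpt1, Rpt6, Rpn8, Rpn6 and Rpn9. For Rpn8, which pairs with Rpn11 in the lid, 41.0% of the span was free of the kinase gene Slik. To compare genes, levels were divided by the length of span that is shared with no other gene.

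On this scale, the 30 counted subunit genes were expressed at similar levels in naïve controls. Their levels ran from 8.81 to 30.6 CPM per kb, a 3.48-fold range, with a median of 16.6 CPM per kb, and 24 of 30 lay within 1.5-fold of the median. The medians of the sub-complexes were 15.9 CPM per kb for the alpha ring, 13.3 for the beta ring, 16.9 for the 19S base and 18.1 for the lid with Rpn10. The nuclear RNA levels of core and cap genes thus lay within the same range.

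At the top stood Prosbeta5, the subunit with chymotrypsin-like activity, with 30.6 ± 1.18 CPM per kb (SD, n = 4). Rpn5 of the lid followed with 26.3 ± 1.44 CPM per kb, then Rpn2, a scaffold of the base, with 25.4 ± 1.25 CPM per kb. Rpn5 and Rpn2 differed by less than their spread, whereas Prosbeta5 stood above Rpn5 by more than either SD. This lead depended on the length used. Per kb of exons, Prosbeta5 had 30.1 CPM, Prosalpha3 29.3 CPM and Rpn5 28.8 CPM. The highest gene of the alpha ring was Prosalpha3, with 23.4 ± 0.906 CPM per kb. At the lower end, Prosalpha4 reached 8.81 ± 0.965 CPM per kb and Prosbeta6, a beta subunit without a proteolytic site, 9.20 ± 1.20 CPM per kb, again with no separation beyond their spread. Rpn9 was the lowest lid gene with 10.9 ± 1.18 CPM per kb, and the ATPase gene Rpt4 the lowest of the base with 11.4 ± 0.969 CPM per kb. Per kb of exons, Rpn3 (11.65 CPM) lay slightly below Rpn9 (11.84 CPM). The other catalytic genes stood lower than Prosbeta5, with 13.2 ± 2.03 CPM per kb for Prosbeta1 and 14.7 ± 1.55 for Prosbeta2.

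**Figure D1:**
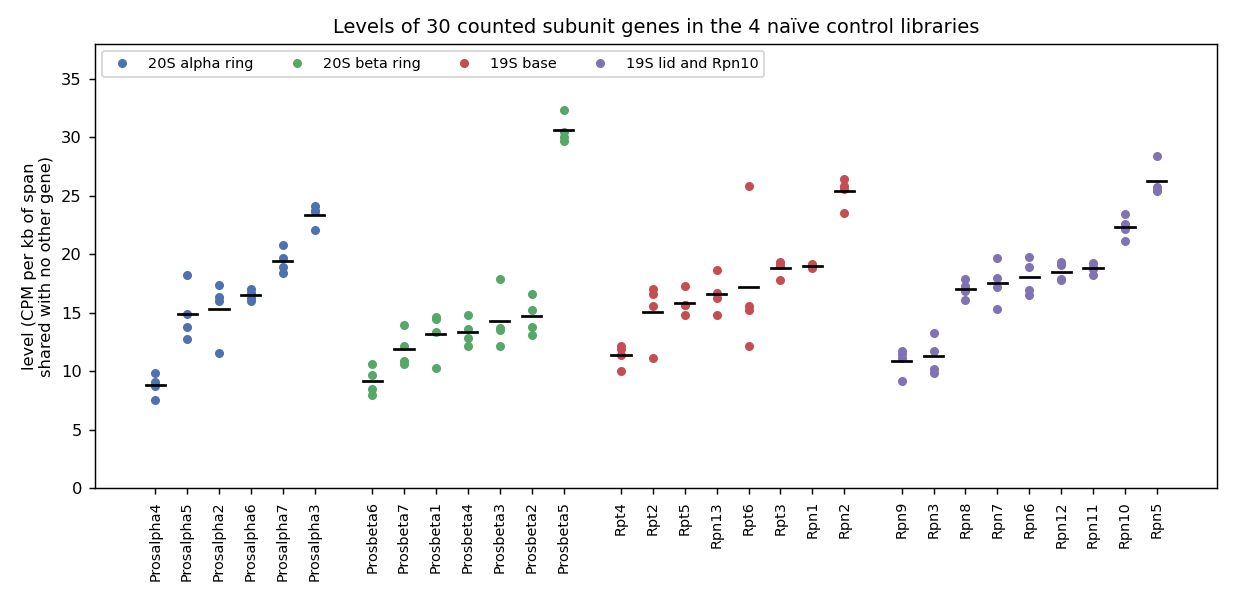
Level of the 30 counted subunit genes in the 4 naïve control libraries, in CPM per kb of span that is shared with no other gene, grouped by sub-complex. Points are libraries and bars are means. Prosbeta5 was highest at 30.6 CPM per kb, Prosalpha4 lowest at 8.81 CPM per kb, and Rpt6 had the widest spread.

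The copies were far lower. Rpt4R had 1.71 CPM per kb in naïve controls, Prosalpha3T 0.695 and Rpt3R 0.606, against 11.4 for Rpt4, 23.4 for Prosalpha3 and 18.8 for Rpt3. In single libraries, the level of Rpt4R was 3.46, 2.29, 1.83 and 3.18 CPM in naïve controls, 2.89, 1.86, 2.32 and 1.32 in trained controls, 2.47, 1.77 and 2.12 in naïve trx-KD flies, and 1.72, 2.04, 0.878 and 2.17 in trained trx-KD flies. The 4 groups overlapped. Rpt3R ranged from 0.191 to 1.82 CPM over the 15 libraries. Prosalpha3T had 0.494, 0.740, 0.662 and 0.575 CPM in naïve controls and 1.06, 0.905, 1.38 and 0.866 CPM in trained controls, which did not overlap, and 0.573 to 1.38 CPM in trx-KD flies. None of the 3 copies was called in any comparison. Male germ line markers were also near 0, with 0.471 to 2.24 CPM summed over 5 genes.

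Trained flies were first compared with naïve flies of the same genotype. Calls were made with the quasi-likelihood test of edgeR, at p-values under 0.1 after Benjamini-Hochberg adjustment over the whole table. In controls, 0 of the 33 tested members were called, while 3.35% of all 9255 tested genes were called lower and 1.03% higher. At an unadjusted p under 0.05 there were 5 members (15.2%), beside 13.5% of all genes, and DESeq2 called 1, Rpt6, as lower, beside 4.46% of all genes. These shares were near those of all genes. The median log2 fold change of the members was -0.06, against 0.00 over all genes tested. Leaving Rpt6 aside, the estimates of the other 29 tested subunit genes lay between -0.38 and 0.15, with standard errors of 0.060 to 0.15.

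In these controls the estimate furthest from 0 among those 29 genes belonged to Prosbeta3, a beta ring gene without catalytic site, with -0.38 ± 0.13 (adjusted p = 0.188). The deubiquitinase gene Rpn11 had 26.7, 25.3, 26.3 and 26.0 CPM in naïve controls and 22.0, 21.9, 21.3 and 24.5 CPM in trained controls. All trained libraries lay below all naïve libraries, but the log2 fold change of -0.23 ± 0.07 did not pass the threshold (adjusted p = 0.161). Prosalpha3 had 28.9, 28.9, 29.4 and 26.9 CPM in naïve and 26.1, 25.9, 25.0 and 24.9 CPM in trained controls. These groups did not overlap either, and the log2 fold change was -0.18 ± 0.07 (adjusted p = 0.266). Rpn11 and Prosalpha3 were the only 2 members whose trained libraries all lay below the naïve ones, or 6.06% of the members tested, beside 5.06% of all genes. In 1 member, Prosalpha3T, the trained libraries all lay above the naïve ones, beside 4.85% of all genes, with a log2 fold change of 0.77 ± 0.29 (adjusted p = 0.254).

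In trx-KD flies, training likewise gave 0 calls among the 33 members by edgeR and 0 by DESeq2. Of all 9370 tested genes, 0.342% were called higher and 0.192% lower by edgeR, and 1.73% higher and 0.875% lower by DESeq2. An unadjusted p under 0.05 was reached by 3 members (9.09%), Rpt6, Rpn6 and Rpn12, beside 12% of all genes. The median log2 fold change of the members was -0.04, against 0.00 over all genes. The 29 subunit genes without Rpt6 had estimates from -0.18 to 0.31 and standard errors of 0.077 to 0.17. Rpn12, a lid subunit, had the highest of these, 0.31 ± 0.14 (adjusted p = 0.413). Its level was 14.8, 13.6 and 16.4 CPM in naïve and 18.8, 15.1, 21.8 and 18.2 CPM in trained trx-KD flies, so that the groups overlapped through 1 trained library. In 3 members, Rpn6, Prosalpha3 and Rpt5, every trained library lay above every naïve one, beside 6.82% of all genes, and in 0 tested members the reverse held, beside 5.22%. Rpn6, a lid subunit, had 39.8, 39.5 and 36.9 CPM in naïve and 42.4, 45.4, 47.6 and 44.1 CPM in trained trx-KD flies. Its log2 fold change was 0.21 ± 0.08 (adjusted p = 0.347), and those of Prosalpha3 and Rpt5 were 0.18 ± 0.09 and 0.16 ± 0.09 (adjusted p = 0.463 and 0.511).

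Levels differed more with genotype. Summed over the members, naïve controls reached 801 ± 29.9 CPM (SD, n = 4), trained controls 779 ± 26.9 CPM (n = 4), naïve trx-KD flies 702 ± 15.5 CPM (n = 3) and trained trx-KD flies 708 ± 25.4 CPM (n = 4). The 8 control libraries ran from 757 to 825 CPM and the 7 trx-KD libraries from 675 to 736 CPM, with no overlap. The naïve trx-KD mean was 0.876 of the naïve control mean. Sums of the 19S base showed the same separation, with 273 to 299 CPM in controls and 237 to 268 CPM in trx-KD flies. The sums of the alpha ring (101 to 124 against 90.8 to 109 CPM), of the beta ring (103 to 127 against 93.6 to 109 CPM) and of the lid with Rpn10 (257 to 286 against 233 to 261 CPM) overlapped between the genotypes.

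**Figure D2:**
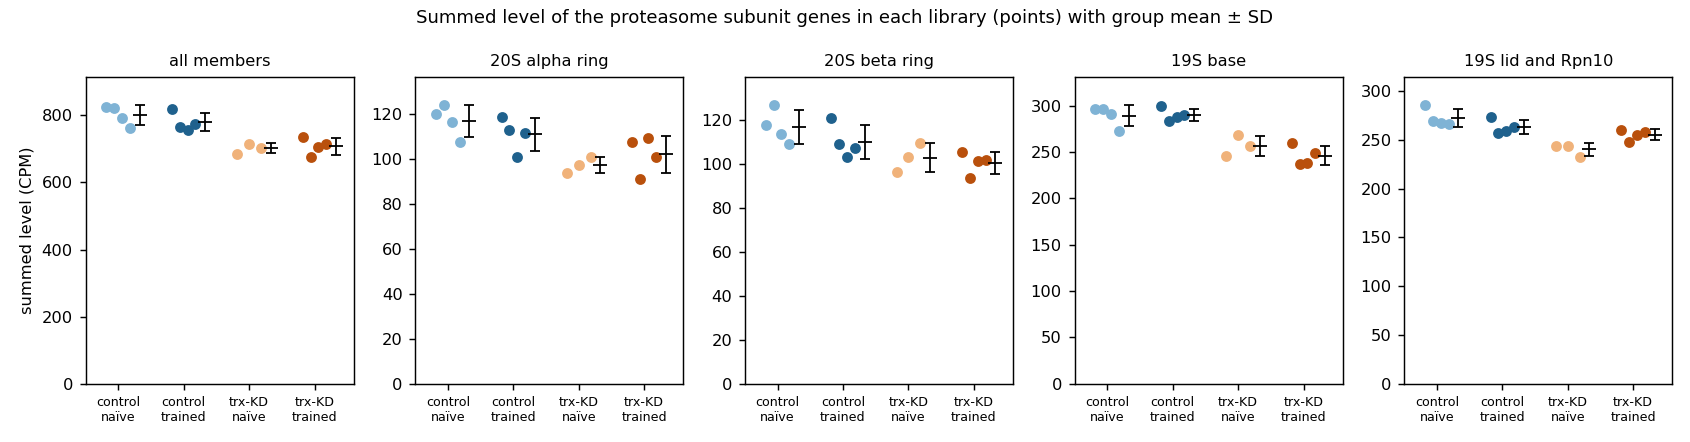
Summed level in CPM for all members and for each sub-complex, with 1 point per library and the mean ± SD of each group beside it. For all members, the 7 trx-KD libraries (675 to 736 CPM) lie below the 8 control libraries (757 to 825 CPM).

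In naïve flies, 9 of 33 tested members were lower in trx-KD than in control nuclei and 0 were higher. This is 27.3% of the members, beside 7.88% of all 9419 tested genes called lower and 6.27% called higher. At an adjusted p under 0.05 there were 5, beside 4.28% of all genes. DESeq2 called 9 members lower and 0 higher, beside 8.84% and 7.98% of all genes, and 15 members (45.5%) had an unadjusted p under 0.05 in edgeR, beside 24% of all genes. Estimates were lower for 29 of 33 members, with a median log2 fold change of -0.21, against -0.02 over all genes tested. The calls fell on every sub-complex, with 2 of 6 tested alpha ring genes, 2 of 7 beta ring genes, 3 of 8 base genes and 2 of 9 lid genes, and on none of the 3 copies. In 13 members (39.4%) every naïve trx-KD library lay below every naïve control library, beside 11.3% of all genes. The 9 calls were among these 13, and the other 4 were Prosbeta2, Rpn5, Rpn8 and Rpn10.

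The median log2 fold change was -0.30 over the alpha ring, -0.20 over the base and -0.21 over the lid with Rpn10, but -0.10 over the beta ring. The largest decreases of single genes, those of Prosbeta4 and Prosbeta3, were nevertheless in this ring. Prosbeta4 (FBgn0032596, arm 2L, 16731180 to 16732133), a subunit of the ring without proteolytic site, had 11.97, 12.7, 13.8 and 11.3 CPM in naïve controls and 7.88, 8.05 and 8.998 CPM in naïve trx-KD flies. Every trx-KD library lay below the lowest control. The log2 fold change was -0.58 ± 0.11 (adjusted p = 0.0145). Prosbeta3 (FBgn0026380, arm 3R, 9005313 to 9006226) had 12.3, 16.0, 10.9 and 12.1 CPM in naïve controls and 9.37, 9.74 and 8.67 CPM in naïve trx-KD flies. The second control library stood above the other 3, and the groups did not overlap. The log2 fold change was -0.46 ± 0.14 (adjusted p = 0.0675). The catalytic genes were not called, with log2 fold changes of -0.01 ± 0.14 for Prosbeta1, -0.24 ± 0.10 for Prosbeta2 and -0.10 ± 0.09 for Prosbeta5.

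In the alpha ring, Prosalpha3 (FBgn0261394, arm 2R, 20994900 to 20996118) fell from 28.9, 28.9, 29.4 and 26.9 CPM in naïve controls to 22.5, 22.8 and 22.6 CPM in naïve trx-KD flies. The 3 trx-KD libraries were nearly equal and lay below all controls. The log2 fold change was -0.33 ± 0.08 (adjusted p = 0.0256). Prosalpha7 (FBgn0023175, arm 2R, 9846636 to 9847836) had 22.7, 25.0, 22.1 and 23.7 CPM in controls and 18.2, 18.7 and 20.2 CPM in trx-KD flies. It did not overlap between the groups, and the log2 fold change was -0.29 ± 0.09 (adjusted p = 0.0679). Prosalpha2 and Prosalpha5 had estimates of similar size, -0.30 ± 0.13 and -0.31 ± 0.13, which did not pass the threshold.

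In the base, the ATPase genes Rpt3 and Rpt5 were called. In yeast, the tails of both proteins dock into pockets of the alpha ring. Rpt5 (FBgn0028684, arm 3R, 23752876 to 23754623) had 27.4, 27.3, 25.9 and 30.2 CPM in naïve controls and 22.5, 22.2 and 20.9 CPM in naïve trx-KD flies. All trx-KD libraries lay below all controls, with a log2 fold change of -0.34 ± 0.09 (adjusted p = 0.0397). Rpt3 (FBgn0028686, chromosome X, 11125101 to 11126785) had 32.1, 32.6, 32.2 and 29.95 CPM in controls and 24.3, 26.0 and 26.2 CPM in trx-KD flies. Again there was no overlap, and the log2 fold change was -0.31 ± 0.08 (adjusted p = 0.0322). The scaffold gene Rpn2 (FBgn0028692, arm 3R, 29153524 to 29157255) was the most highly counted member. It had 95.7, 98.7, 96.5 and 88.0 CPM in controls and 77.2, 84.7 and 82.1 CPM in trx-KD flies. The groups were separate, with a smaller log2 fold change of -0.22 ± 0.07 (adjusted p = 0.0744). The other scaffold gene, Rpn1, was at 0.01 ± 0.07 and the ATPase gene Rpt4 at 0.03 ± 0.10.

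In the lid, Rpn11 (FBgn0028694, arm 2L, 5058404 to 5059790), whose product removes ubiquitin chains from substrates as they enter the core, had 20.3, 19.8 and 18.7 CPM in naïve trx-KD flies. All 3 values lay below the naïve control range of 25.3 to 26.7 CPM. The log2 fold change was -0.41 ± 0.08 (adjusted p = 0.0148). Rpn12 (FBgn0028693, arm 3L, 16583028 to 16584022) had 17.7, 18.98, 17.8 and 19.3 CPM in naïve controls and 14.8, 13.6 and 16.4 CPM in naïve trx-KD flies. The groups did not overlap, and the log2 fold change was -0.30 ± 0.10 (adjusted p = 0.088). The highest estimate among the lid genes was that of Rpn9, 0.09 ± 0.10.

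The number of calls rested on few libraries. Without naïve control replicate 4, the library that stood apart, there were 15 members called lower, beside 14.9% of all genes. Without replicates 1, 2 and 3 there were 5, 5 and 7, beside 4.3%, 5.7% and 5.5% of all genes. Without any one of the 3 naïve trx-KD libraries, 2 members, Rpn11 and Prosbeta4, were still called, and these were called under every alternative tried. Without these libraries, 3.3%, 2.2% and 3.7% of all genes were called lower, so the numbers of calls moved over the whole table. The median of the members stayed between -0.22 and -0.18 when single libraries were left out. Other gene groups differed between the same libraries. Ribosomal protein genes made up 1.02% to 1.098% of counts in naïve controls and 0.872% to 0.959% in naïve trx-KD flies. The 6 glial markers summed to 767 to 910 CPM and 659 to 685 CPM, with Gs2 and Eaat1 called lower. Of these markers, moody and alrm were at 0, but none of their spans was free of other genes, so their zeros say nothing of expression. The 12 Kenyon cell markers summed to 12172 to 14450 CPM and 13479 to 14377 CPM, which overlapped, with Dop1R2 called higher. The 6 hemocyte markers summed to 351 to 445 CPM and 415 to 450 CPM, with 3 called lower. The 6 fat body markers summed to 4497 to 6408 CPM in naïve controls and 3619 to 3862 CPM in naïve trx-KD flies, with no overlap and with apolpp called lower. The part of these differences in the result was not tested.

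In trained flies, 4 of 33 tested members were lower in trx-KD nuclei, or 12.1%, beside 6.78% of all 9237 tested genes, and 1 was higher, beside 7.12%. DESeq2 called 6 lower and 1 higher, beside 7.95% and 11.1% of all genes. In edgeR 8 members (24.2%) had an unadjusted p under 0.05, which was no more than the 25.8% of all genes. Estimates were lower for 26 of 33 members, with a median log2 fold change of -0.13, against -0.03 over all genes. Of the 4 lower members, 3 belong to the 19S base and 1 to the alpha ring, while 0 of 7 beta ring genes and 0 of 9 lid genes were called. In 6 members (18.2%) every trained trx-KD library lay below every trained control library, beside 8.49% of all genes. Of these 6, 5 were base genes, namely Rpt2, Rpt3, Rpt4, Rpn2 and Rpn13.

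The ATPase gene Rpt2 (FBgn0015282, arm 3R, 23929873 to 23931558) had 27.9, 25.4, 25.3 and 27.2 CPM in trained controls and 19.9, 22.1, 14.6 and 13.8 CPM in trained trx-KD flies. The trx-KD libraries formed a high and a low pair, all below the controls. The log2 fold change was -0.59 ± 0.14 (adjusted p = 0.0337). The ubiquitin receptor gene Rpn13 (FBgn0033886, arm 2R, 13958545 to 13960404) had 33.5, 31.7, 33.1 and 32.2 CPM in trained controls and 29.4, 24.7, 23.5 and 26.2 CPM in trained trx-KD flies. These did not overlap, and the log2 fold change was -0.33 ± 0.08 (adjusted p = 0.0402). Rpn2, which holds Rpn13 in the cap, had 89.0, 88.5, 96.8 and 93.1 CPM in trained controls and 79.6, 74.1, 62.7 and 74.3 CPM in trained trx-KD flies. All 4 trx-KD libraries were lower, with a log2 fold change of -0.34 ± 0.08 (adjusted p = 0.0269). Prosalpha2 (FBgn0086134, arm 3R, 12431321 to 12432556) had 22.9, 19.96, 17.6 and 21.2 CPM in trained controls and 17.8, 12.7, 13.4 and 12.2 CPM in trained trx-KD flies. The highest trx-KD library overlapped the lowest control, and the log2 fold change was -0.53 ± 0.14 (adjusted p = 0.0389).

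The 2 genotype comparisons share no library. Of the 33 members tested in both, 23 had lower estimates in both, 6 were lower in naïve and higher in trained flies, 3 the reverse, and 1 was higher in both. Only Rpn2 was called in both, which is 11.1% of the 9 naïve calls and 25.0% of the 4 trained calls. Of the 9 naïve calls, 7 had a lower estimate in trained flies, where 26 of all 33 tested members did, and of the 4 trained calls, 4 had a lower estimate in naïve flies, where 29 of 33 did. The 2 naïve calls without a lower estimate in trained flies were Prosalpha3, with 0.00 ± 0.08 in trained flies, and Rpn12, with 0.03 ± 0.12. A call in one comparison and not in the other does not show that the effects differ, which is tested by the interaction given further on.

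**Figure D3:**
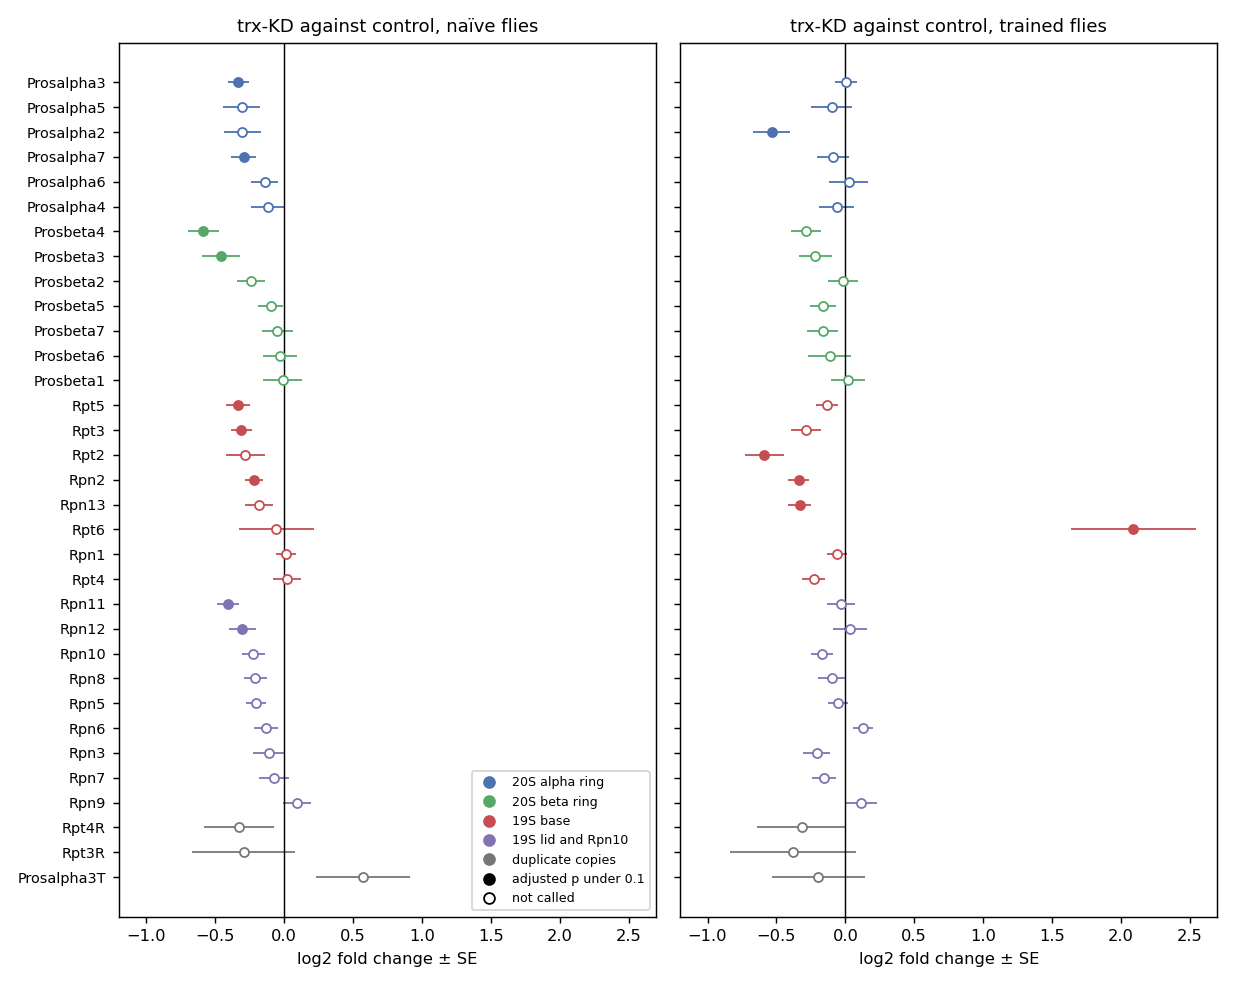
Log2 fold change ± SE of the 33 tested members in trx-KD against control flies, for naïve and trained flies, coloured by sub-complex. Filled points have an adjusted p under 0.1 (9 in naïve and 5 in trained flies). Most points lie below 0, and Rpt6 in trained flies stands apart at 2.09.

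**Figure D4:**
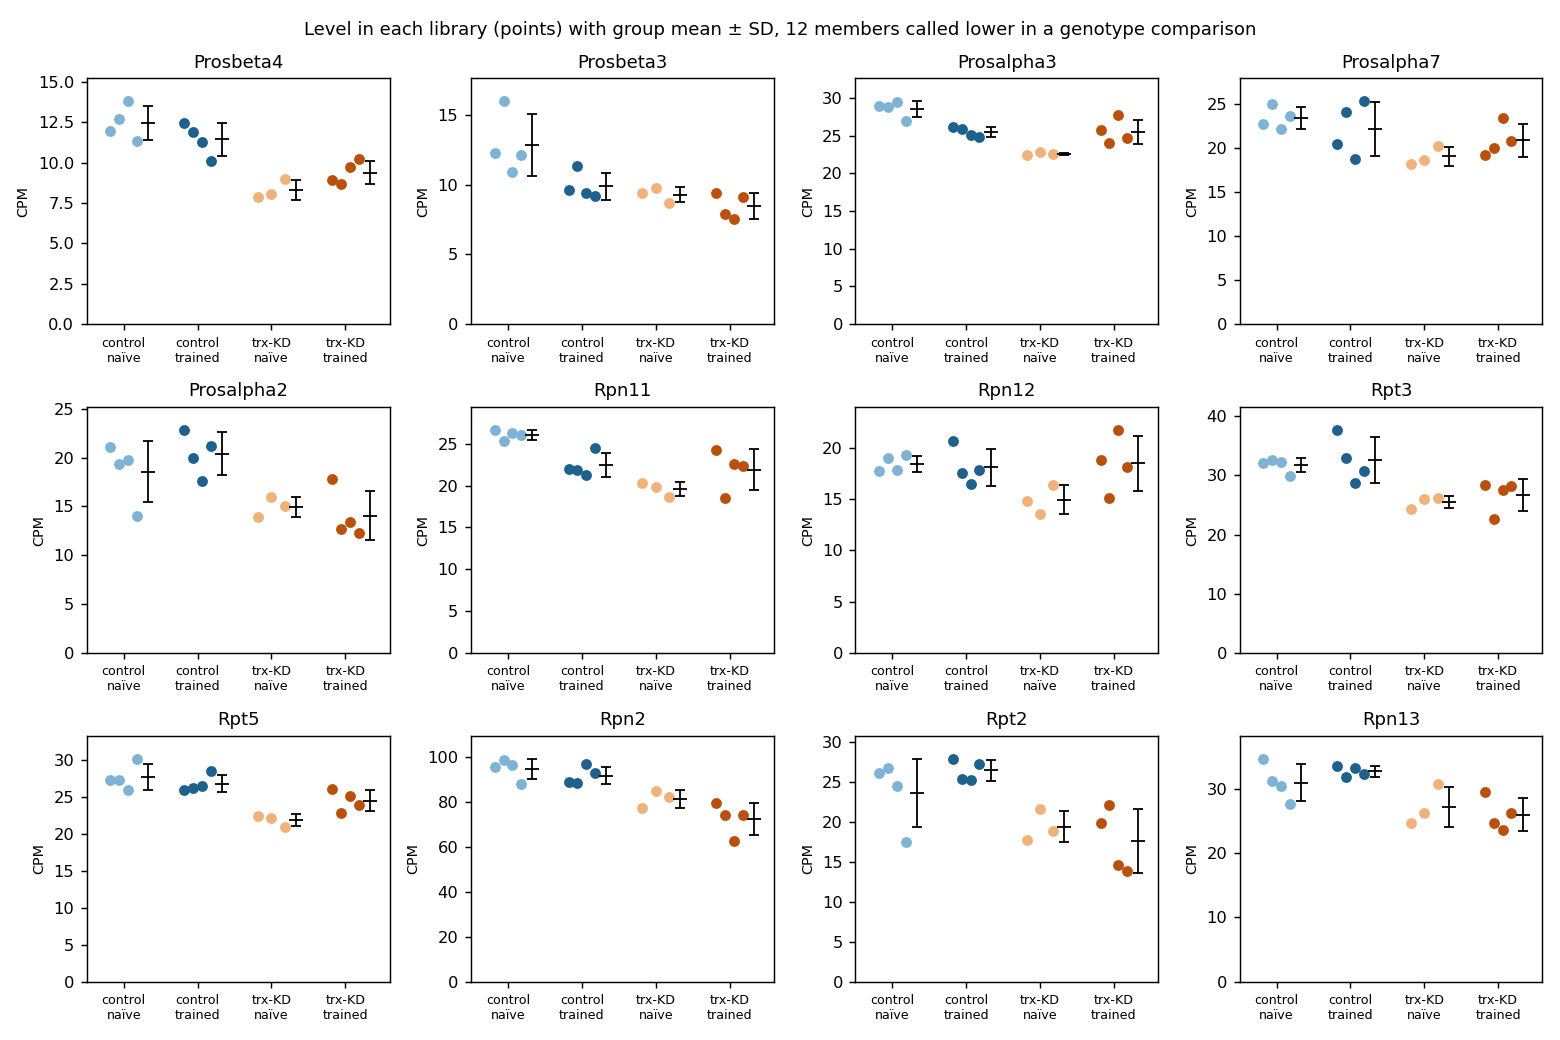
Level in CPM in each of the 15 libraries for the 12 members called lower in 1 or both genotype comparisons, with the mean ± SD of each group. For Prosbeta4 and Rpn2, both trx-KD groups sit below the controls of the same treatment or nearly so, whereas for Prosalpha3 and Rpn12 only the naïve trx-KD group is low.

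In trained flies, too, single libraries mattered. There was 1 lower member, Rpn2, without trained control replicate 4, beside 2.34% of all genes. There were 2 without trained control replicate 2 or trained trx-KD replicate 4, beside 2.37% and 2.84% of all genes. The share of all genes was thus also below the 6.78% of the main fit. The Kenyon cell markers summed to 12960 to 14586 CPM in trained controls and 15148 to 17113 CPM in trained trx-KD flies, with 6 of 12 called higher (toy, mub, Dop1R2, Pka-C1, sNPF and Fas2). Ribosomal protein genes made up 0.933% to 1.02% and 0.865% to 0.990% of counts, and the glial markers summed to 699 to 812 CPM and 639 to 871 CPM, with Eaat1 called lower. Mitochondrial transcripts made up 0.816% to 1.02% of counts in trained controls and 0.241% to 0.667% in trained trx-KD flies, with no overlap. Of the fat body markers, Yp1 and Lsp2 were called higher, with sums of 3302 to 3532 CPM and 2698 to 4371 CPM. Yp1 was very uneven between the trained trx-KD libraries, with 0.12 to 142 CPM and a mean of 35.7 ± 70.6 CPM (SD). Of the hemocyte markers Hml was called higher, with sums of 415 to 479 CPM and 368 to 506 CPM. The part of these differences in the result was not tested.

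Rpt6 was the only member called higher in any comparison. It encodes an ATPase of the base ring and lies on chromosome X from 21316052 to 21317663 on the plus strand (FBgn0020369). The span of CG1801, on the minus strand from 21307586 to 21317522, covers all of it but the last 141 of 1612 bases (8.7%), so the counts of Rpt6 came from the downstream end of the gene. Relative to these bases its level in naïve controls, 17.2 ± 5.95 CPM per kb, lay in the middle of the other subunit genes. Its counts were 40, 32, 44 and 95 in naïve controls, 17, 31, 24 and 38 in trained controls, 103, 51 and 68 in naïve trx-KD flies and 82, 35, 240 and 91 in trained trx-KD flies.

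As levels, these were 2.20, 2.15, 1.71 and 3.64 CPM in naïve controls and 1.00, 1.40, 0.977 and 1.73 CPM in trained controls. Naïve trx-KD flies had 2.25, 2.05 and 2.77 CPM, and trained trx-KD flies had 3.36, 2.10, 10.5 and 5.80 CPM. The trained controls were thus lowest, and the trained trx-KD libraries were widely spread, with the third far above the rest. In trained flies the groups did not overlap, with a log2 fold change of 2.09 ± 0.45 (adjusted p = 0.0233). This call held with any single library left out, with log2 fold changes of 1.53 to 2.35. In naïve flies the log2 fold change was -0.06 ± 0.27 (adjusted p = 0.928). Training gave -0.94 ± 0.29 in controls (adjusted p = 0.139) and 1.22 ± 0.46 in trx-KD flies (adjusted p = 0.358). CG1801 itself had 0 to 10 counts in control and 0 to 1 in trx-KD libraries. Whether the counts on these 141 bases came from Rpt6 transcripts or from another transcript reading through the region was not tested.

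**Figure D5:**
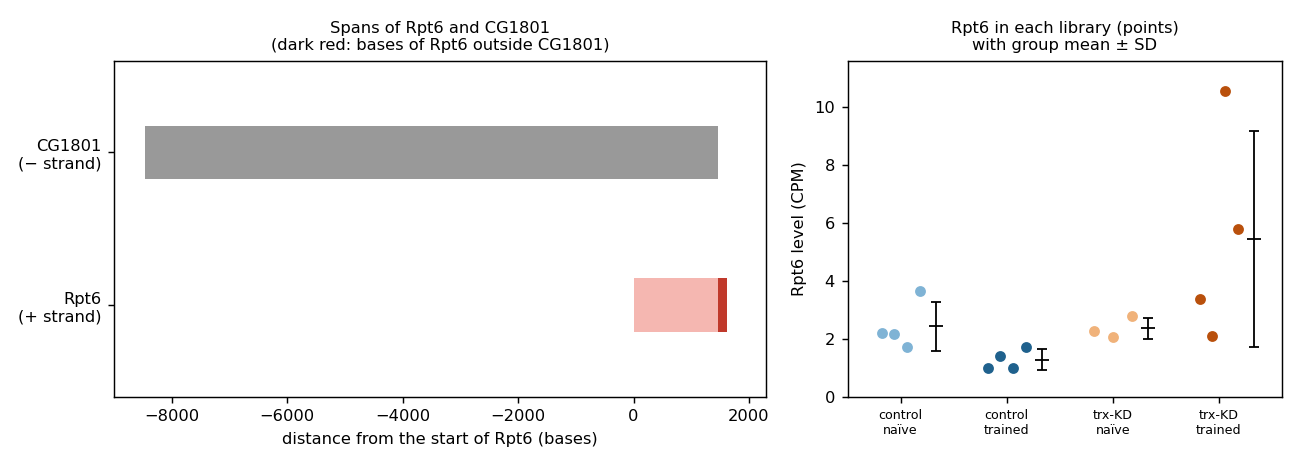
Left, spans of Rpt6 and CG1801 by distance in bases from the start of Rpt6, with the 141 bases of Rpt6 outside CG1801 in dark red. Right, level of Rpt6 in CPM in each library with the mean ± SD of each group; trained controls (0.977 to 1.73 CPM) and trained trx-KD flies (2.10 to 10.5 CPM) do not overlap.

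The interaction asks whether training changed a gene differently in trx-KD than in control flies, and was fitted on all 15 libraries. In this test 0 of 33 members were called by edgeR, where 0% of all 9749 tested genes were called, although 5 members (15.2%) and 1055 genes (10.8%) had an unadjusted p under 0.05. DESeq2 called 1 member, Rpt6, as higher, beside 0.185% of all genes. The estimate for Rpt6 was 2.15 ± 0.58 (adjusted p = 0.363 by edgeR and 0.0834 by DESeq2). For Rpn11 it was 0.38 ± 0.12, for Prosalpha3 0.34 ± 0.10 and for Rpn12 0.34 ± 0.16, and none of them passed the threshold in edgeR (adjusted p = 0.363, 0.363 and 0.452). Without trained trx-KD replicate 2, however, Rpt6, Rpn11 and Prosalpha3 were called (adjusted p = 0.0408, 0.064 and 0.089 by edgeR). In that fit, 157 of all 9716 tested genes were called higher and 32 lower, so the calls rose over the whole table. The median over members was 0.03, against -0.01 over all genes. A different response to training was therefore not shown for any member other than under these settings.

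Genes that work with the proteasome were examined as lists. Among 9 genes for assembly, regulators and partners, such as Pomp, Sem1 and Usp14, 1 was called lower in naïve trx-KD flies. In that comparison 7.88% of all genes were called lower, and in the other comparisons 0 of the 9 were called. The called gene was REG, the fly PA28-type activator that caps the core without the 19S particle. It had 38.9 ± 8.22 CPM in naïve controls and 28.9 ± 0.844 CPM in naïve trx-KD flies (n = 3). The log2 fold change of REG was -0.43 ± 0.14 (adjusted p = 0.0841). In trained trx-KD flies REG had 36.2 ± 2.64 CPM, close to the 35.6 ± 0.827 CPM of trained controls. The median log2 fold change of the 9 genes was -0.11 in naïve and -0.13 in trained flies.

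Of 7 matched genes that act on the expression of proteasome subunits, among them cnc, Keap1 and rngo, 1 was called, again lower in naïve trx-KD flies. This was maf-S, the small Maf protein that pairs with the activator cnc, which had 21.4 ± 1.89 CPM in naïve controls and 15.04 ± 1.97 CPM in naïve trx-KD flies. Its log2 fold change was -0.51 ± 0.11 (adjusted p = 0.0223), in the comparison where 7.88% of all genes were called lower. Of 11 genes for ubiquitin and its delivery, 10 were tested and 1, RpS27A, was called, in both the naïve genotype comparison and in controls after training. RpS27A encodes ubiquitin fused to a ribosomal protein and belongs to the ribosomal protein genes whose share of counts is given above. Of its span, 40.2% was shared with no other gene. Its level was 117 ± 5.66 CPM in naïve controls, 97.9 ± 5.30 CPM in trained controls, 85.0 ± 6.63 CPM in naïve trx-KD flies and 93.6 ± 6.26 CPM in trained trx-KD flies. The log2 fold changes were -0.45 ± 0.07 for genotype in naïve flies (adjusted p = 0.00801) and -0.27 ± 0.06 for training in controls (adjusted p = 0.0339). Of all genes, 7.88% and 3.35% were called lower in these comparisons. CG10694, the gene of this list not tested, was at 0 in every library. None of its span was free of other genes, so this says nothing of its expression.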

How the data were processed

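The authors deposited whole-number read counts per gene for each library, without normalization. The submitters' processing notes name STAR 2.5.3a, HTSeq 0.7.1 and the dm6 build, and strand settings were not given in the sources used here. Genes were matched by FlyBase ID to symbols and to the BDGP6 annotation (release 54, dm6 coordinates), and 17253 of 17559 genes matched. The nuclear tag, 0.437% to 0.681% of counts, was left out. The software was edgeR 4.0.16 in R 4.3.3, which builds on limma 3.58.1, with DESeq2 1.42.0 as an alternative. Low genes were removed with filterByExpr (minimum count 10, minimum total 15), counts were scaled by TMM, and each comparison was fitted by quasi-likelihood to its own groups only, or to all 15 libraries for the interaction. P-values were adjusted by Benjamini-Hochberg over all genes tested and called under 0.1. Fits were tested on simulated data. The chi-square per degree of freedom between replicate libraries of the same group was 7.89 to 57.7, so no library was a repeat of another in its group. Libraries of different groups were not compared in this way.

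Samples were grouped by the genotype and treatment in the labels. The members and lists were chosen with earlier results of these data known. Named with values are members called in a comparison (of more than 8 calls, the 4 highest and 4 lowest), the highest and lowest per length of each sub-complex, tested copies and members with a library far from its group. Prosalpha3 in naïve flies falls outside the first of these and, like other uncalled members given with values, was named after its values were seen. Markers of the lists are counted as lists. Of the lists, TER94 and vas were not analysed here, and CG12321 and CG11885 were kept although their roles are less sure. Alternatives were DESeq2, DESeq2 size factors in edgeR, library size alone, no filter, all 15 libraries in 1 fit, a replicate block, a restriction to nuclear genes that code for proteins, a threshold of 0.05, and leaving out single libraries. Replicate numbers did not pair the libraries, with correlations of deviations of -0.238 to 0.14 between same-numbered libraries.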

Additional observations from a re-analysis of the deposited data

Results flagged for a closer look

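In groups of 4 libraries, 7 of 99 had a library that stood apart from the other 3 by Dixon's criterion, which chance meets in about 1 group in 20 (4.95 of 99). Trained control replicate 1 was high for Prosalpha6 (21.5 CPM, others 16.3 to 17.1), for Prosbeta6 (12.5 CPM, others 8.25 to 8.92) and for Rpn1 (64.6 CPM, others 56.3 to 57.6). Trained trx-KD replicate 2 was low for Prosbeta2 (14.5 CPM, others 18.1 to 18.6) and for Rpt3 (22.6 CPM, others 27.5 to 28.4). Naïve control replicate 1 was high for Rpn5 (59.0 CPM, others 52.8 to 53.4), and naïve control replicate 4 was low for Rpt3 (29.95 CPM, others 32.1 to 32.6). None of these genes was called in a comparison of trained with naïve flies. Rpt3, however, was called lower in trx-KD than in control nuclei of naïve flies. Without naïve control replicate 4, its log2 fold change there was -0.33 (adjusted p = 0.00868, edgeR).

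The estimates of Prosalpha3 after training had opposite signs in the 2 genotypes. All trained control libraries lay below all naïve control libraries, and all trained trx-KD libraries (24.0 to 27.7 CPM) lay above all naïve trx-KD libraries (22.5 to 22.8 CPM). The interaction estimate was 0.34 and did not pass the threshold (adjusted p = 0.363, edgeR).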

How the results depend on the processing

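The results recomputed here were numbers of members called and medians over the members, not single genes. Of these, 105 of 112 values under other settings and 122 of 135 with 1 library left out stayed close to the main value. Close meant a similar count, or a median moved by less than the spread between replicate libraries. Many of these values were counts of calls that were 0 in the main fit and had little room to move. The tally therefore says little of the members called lower in naïve trx-KD flies, 9 in the main fit, whose counts are given below. Some single calls were less stable. In naïve flies, Rpn12 stayed called in 6 of 15 alternatives, Rpn2 in 7, Prosalpha7 in 8 and Prosbeta3 in 9. Rpt3, Rpt5 and Prosalpha3 stayed called in 12, and Rpn11 and Prosbeta4 in 15. For trx-KD against control in naïve flies, 5 members were called lower at an adjusted p under 0.05, beside 4.28% of all genes. When single libraries were left out there were 2 to 15, beside 2.2% to 14.9% of all genes. In trained flies, 7 were called lower with library size alone (median log2 fold change -0.20), beside 11.2% of all genes. With all 15 libraries in 1 fit there were 7, beside 8.29%, and with single libraries left out 1 to 4, beside 2.3% to 9.5%. With library size alone, 378 genes of all those tested in trained flies were called higher and 1031 lower, against 658 and 626 with TMM. For training in controls, 1 member was called lower by DESeq2, beside 4.46% of all genes. With single libraries left out there were 0 to 1, beside 1.95% to 5.23%. The median for training in trx-KD flies ran from -0.051 to 0.030 with single libraries left out. In the interaction, DESeq2 called 1 member higher, and leaving out single libraries gave 0 to 3 and medians of 0.019 to 0.11. The 3 came without trained trx-KD replicate 2, where 157 of all 9716 tested genes were called higher. Signs changed for 2 uncalled estimates near 0. Rpt6 in naïve flies became 0.24 with the replicate block, 0.24 without naïve control replicate 4 and 0.029 without naïve trx-KD replicate 2. The block sets naïve control replicate 4 aside, so the 0.24 values come from nearly the same fit. Prosalpha3 in trained flies became -0.071 with library size alone, -0.0047 and -0.0091 without trained control replicates 3 and 4, and -0.039 without trained trx-KD replicate 3, in a range of -0.039 to 0.032 with single libraries left out. The causes were not tested.

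The replicate numbers did not pair the libraries. With the replicate block, 16 members were called lower in naïve trx-KD flies, beside 15.9% of all genes. Naïve trx-KD flies have no replicate 4, so the block sets naïve control replicate 4 aside. That fit is thus close to the one without this library, with 15 members and 14.9% of all genes. In trained trx-KD flies the block gave 4 lower and 1 higher, beside 7.96% of all genes called lower. The other comparisons had 0 calls of members. The counts limit Rpt6 and the copies most, since most subunit genes had standard errors of about 0.1 on the log2 scale.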
